A study of Schizosaccharomyces pombe with 37 samples.

Results

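RNA levels of 10 fission yeast genes of central carbon metabolism were followed across 10 strains of *Schizosaccharomyces pombe*, of 6996 annotated features counted in all. They are the genes of lower glycolysis, *fba1*, *tpi1*, *tdh1*, *gpd3*, *pgk1*, *gpm1*, *eno101*, *eno102* and *pyk1*, and the pyruvate decarboxylase gene *pdc101*, and each was found by its name in the table of gene values. They were chosen by their measured direction of change in ssu72D and swd22D against that in dis2D and pfs2-F115H. Their values in those 4 strains are therefore a description, and no p-value is given for them there. Counts of calls are printed beside the share over all genes. Which members were called there, and whether the calls held in other settings, describes the fit and is no test of the genes. Levels are in CPM (the reads of a gene scaled to a common library total). All 10 passed the filter on low values, 1 CPM on average over the 30 libraries, and 8 of them averaged over 1000 CPM.

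The study asked how mutations in the cleavage and polyadenylation factor (CPF), which cuts nascent transcripts and adds their poly(A) tails, allow small RNAs to silence a reporter gene. The strains used here had no hairpin that makes such small RNAs, and total RNA was sequenced from 3 samples of each, labelled replicates 1 to 3. Deletions were ssu72D (Ssu72, a phosphatase of the RNA polymerase II tail), swd22D (Swd22, a WD40 repeat subunit), dis2D (Dis2, a protein phosphatase 1 catalytic subunit) and ppn1D (Ppn1, a partner of that phosphatase), each marked with kanMX. Point mutants were pfs2-F115H, also marked with kanMX, in the WD40 subunit Pfs2, and yth1-R59C, without that marker, in the zinc finger subunit Yth1. A further 3 strains, PAS-T4A, PAS-T4C and PAS-T4G, had wild-type CPF and a single base changed in the polyadenylation signal of the reporter. The reference was wt. Every strain, wt included, was haploid h-, carried ade6-704, leu1-32 and ura4-D18 together with the reporter *trp1+::ade6+*, and grew exponentially in YES, a rich medium with glucose, at 30 °C. Each genotype was represented by 1 strain, and nothing states that the replicates came from separate cultures, so p-values measure the spread between these samples.

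Glycolysis splits a hexose into triose phosphates and converts these to pyruvate, and its lower part, from aldolase to pyruvate kinase, yields ATP. In yeasts growing fast on glucose, most of the pyruvate is decarboxylated to acetaldehyde by pyruvate decarboxylase and reduced to ethanol by alcohol dehydrogenase, which recovers the NAD+ that the glyceraldehyde-3-phosphate dehydrogenase step uses. The mRNAs of these enzymes are among the most abundant that such cells make.

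Depth and labels set how far single values can be read. Between 1031965 and 6344396 reads were counted per library, and 3 reads, taken as the smallest detectable level, corresponded to 0.473 to 2.91 CPM. These floors cover counting error only. No reads fell on *ssu72*, *swd22* or *dis2* in the strains deleted for them, whereas the libraries labelled ppn1D held 153 to 480 reads on *ppn1* (76.3 to 86.1 CPM, against 62.8 to 79.3 CPM in wt), so what those libraries say about a loss of Ppn1 is uncertain. Mitochondrial genes took 8.01% to 15.0% of the reads. Their share was 10.9% to 12.3% in ssu72D, 9.96% to 11.6% in swd22D, 13.2% to 14.7% in dis2D, 12.4% to 15.0% in pfs2-F115H and 10.8% to 11.9% in wt. A level in CPM is a share of a library, so more RNA of one gene and less RNA of the others cannot be told apart.

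The sequence just before the start of the 10 genes was searched for a TATA hexamer. The 60 bases before each annotated transcript start were taken from the RefSeq annotation of the build ASM294v3 and searched on the coding strand for the hexamers TATAAA and TATATA, forms of the TATA box that places RNA polymerase II, which may overlap each other. The search covered hexamers that began 50 to 25 bases before the start. All 10 windows held at least 1 match, and they are printed, with the matches in capitals, because sequence had no part in choosing the genes.
fba1: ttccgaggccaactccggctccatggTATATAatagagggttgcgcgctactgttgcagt
tpi1: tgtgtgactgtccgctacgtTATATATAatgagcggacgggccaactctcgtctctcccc
tdh1: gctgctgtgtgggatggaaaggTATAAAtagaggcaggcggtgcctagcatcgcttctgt
gpd3: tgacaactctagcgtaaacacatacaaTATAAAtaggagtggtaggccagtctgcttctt
pgk1: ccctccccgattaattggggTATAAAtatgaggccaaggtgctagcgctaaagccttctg
gpm1: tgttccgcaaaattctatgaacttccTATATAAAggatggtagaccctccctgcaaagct
eno101: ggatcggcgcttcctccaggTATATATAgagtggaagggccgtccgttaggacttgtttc
eno102: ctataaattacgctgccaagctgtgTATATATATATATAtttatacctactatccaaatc
pyk1: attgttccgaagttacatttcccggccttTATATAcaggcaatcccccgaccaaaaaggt
pdc101: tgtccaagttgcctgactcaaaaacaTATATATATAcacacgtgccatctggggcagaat

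The windows lie at chr2:1688261-1688320 for *fba1*, chr2:2807535-2807594 for *tdh1*, chr2:578057-578116 for *gpd3* and chr2:2201136-2201195 for *eno101*, all on the plus strand, and at chr2:4159462-4159521 for *pgk1* and chr2:59691-59750 for *eno102* on the minus strand. Those of *gpm1* (chr1:5174655-5174714), *pyk1* (chr1:3846676-3846735) and *pdc101* (chr1:103598-103657) are on the minus strand of chromosome I, and that of *tpi1* (chr3:939853-939912) is on the plus strand of chromosome III. Within the searched range TATAAA was found for 4 genes, *tdh1*, *gpd3*, *pgk1* and *gpm1*, and TATATA for 7, so neither hexamer alone was there in all 10. The *eno102* window also has a TATAAA near its far end, outside that range and left in lower case. *eno102* had the longest run, 5 overlapping matches.

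**Figure D1:**
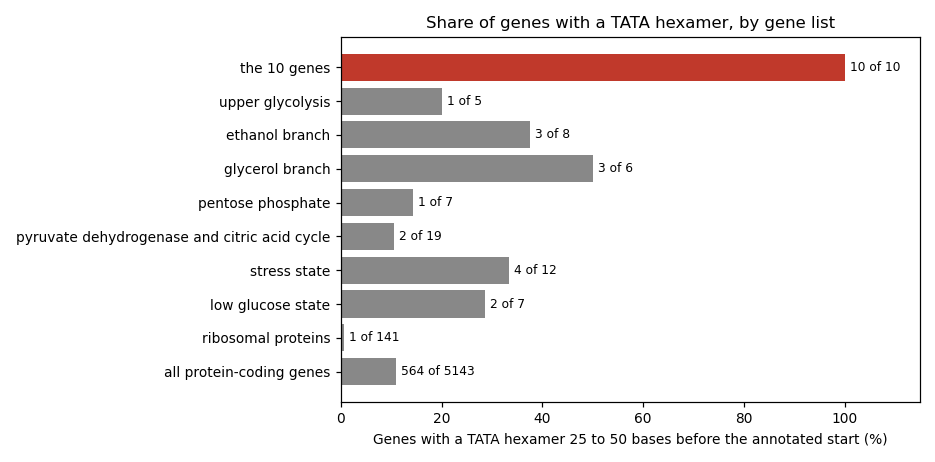
Share of genes (%, bar length) with TATAAA or TATATA beginning 50 to 25 bases before the annotated start, for the 10 genes, the other gene lists and all protein-coding genes; labels give genes with a match of genes searched. The 10 genes stand at 10 of 10, all protein-coding genes at 564 of 5143 and the ribosomal protein list, taken by gene name, at 1 of 141.

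Over all protein-coding genes with a window, 564 of 5143 (11.0%) held either hexamer there, and the share was higher among abundant transcripts. Of the 26 genes with at least 3000 CPM in wt, 13 (50%) held one, and these 26 include 8 of the 10 genes: of the other 18, 5 did. The ribosomal protein list, taken by gene names beginning rpl, rps or rpp and another group with abundant mRNAs, held one in 1 of 141 cases. The hexamers and the window were chosen after the sequences had been seen, so the count of 10 of 10 was in part fixed by that choice, and a match is a description of the letters, not a mapped promoter element.

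At the other end of the transcript, where CPF acts, neither AATAAA nor any of 3 one-base variants of it was in more than 2 of the 10 genes. AATAAA, the DNA form of the canonical poly(A) signal AAUAAA, occurred in the last 100 bases of the annotated transcript in 2 of the 10, *tdh1* and *pgk1*, against 1295 of 5143 protein-coding genes (25.2%). The one-base variants that the reporter strains carry occurred as AATGAA in *gpd3* and *eno101* (12.8% of all genes), as AATCAA in *gpm1* (7.78%) and as AATTAA in 0 of the 10 (15.9%). The sites of the 2 genes with AATAAA, *tdh1* (chr2:2808962-2808991, plus strand) and *pgk1* (chr2:4157844-4157873, minus strand), are shown with it in capitals. Whether the signal has a part in the levels of these genes was not tested.
tdh1 site: taaatacttataAATAAAttttatgatttt
pgk1 site: tgtttatgttatAATAAAgaaatagaatat

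In wt the 8 abundant members ranked between 3 (*pdc101*) and 28 (*tpi1*) of the 6996 features by CPM, with *eno101* at 4, *fba1* at 5 and *tdh1* at 6. Per kilobase of full exon length, *fba1* had the highest value at 7857 ± 316 CPM per kb (SD, n = 3). All its libraries were above those of *eno101* at 6987 ± 272 CPM per kb. *tdh1* (6602 ± 763), *pdc101* (6238 ± 192) and *gpm1* (6152 ± 26.9 CPM per kb) followed. In the run from *eno101* to *gpm1* each gene overlapped its neighbour, so that order is not resolved. Below it the levels were separate, at 4650 ± 252 CPM per kb for *pgk1*, 3589 ± 182 for *tpi1* and 3316 ± 98.2 for *pyk1*. The second copies were far lower, with *gpd3* at 191 ± 16.6 and *eno102* at 15.0 ± 2.13 CPM per kb. Of read-length windows, 16.6% in *tdh1* and 18.0% in *gpd3* occur elsewhere in the genome, unlike those of the other members. Such reads were not counted, and the exon lengths were not corrected for this, so the *tdh1* and *gpd3* values are too low. Whether *fba1* or *tdh1* was highest is therefore not resolved, nor is the place of *tdh1* relative to *eno101*.

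Taken as a sum, the 10 genes held 8.94 ± 0.34% of all counted reads in ssu72D and 8.89 ± 0.56% in swd22D, against 6.42 ± 0.19% in wt (SD, n = 3 each). In dis2D they held 5.48 ± 0.14% and in pfs2-F115H 4.89 ± 0.63% of the reads. The lowest library of ssu72D and swd22D was at 8.24%, and the highest of dis2D and pfs2-F115H at 5.63%, with the 3 wt libraries between them at 6.29% to 6.64%. In descending order of the means stood ssu72D, swd22D, PAS-T4C (7.26%), PAS-T4A (6.85%), PAS-T4G (6.57%), wt, ppn1D (6.29%), dis2D, yth1-R59C (5.41%) and pfs2-F115H. Neighbours in this order overlapped in their libraries except swd22D and PAS-T4C, whose highest library was at 8.05%.

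**Figure D2:**
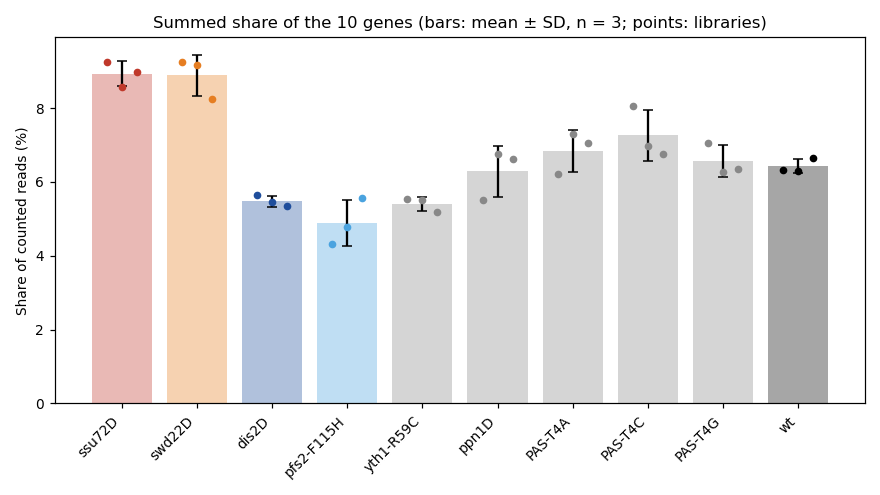
Share of all counted reads (%) held by the 10 genes together, by strain; bars are means with SD (n = 3) and points are single libraries. The ssu72D and swd22D libraries reach 8.24% to 9.26%, those of dis2D and pfs2-F115H 4.33% to 5.63%, and wt 6.29% to 6.64%.

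Without any wt library, the mean of ssu72D and swd22D was set against the mean of dis2D and pfs2-F115H. The median difference over the 10 genes was 0.66 on the log2 scale, beside -0.11 over the 5911 genes tested. Of the 10, 8 were higher and 1, *eno102*, lower at an adjusted p under 0.05 (limma), where 6.09% of all genes were higher and 26.3% lower. With scaling by median ratios, which centres the median of all genes near 0, those shares were 12.4% and 12.8%, and 9 of the 10 again passed. For 7 of the 10 all 6 ssu72D and swd22D libraries lay above all 6 dis2D and pfs2-F115H libraries, a position held by 1.35% of genes. These shares are the background of counts that the choice of genes already fixed. *tdh1* (1.18) and *pgk1* (1.07 on the log2 scale) differed by more than 2-fold, and *gpd3* was the one member that did not pass, at 0.30 ± 0.16 (SE).

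**Figure D3:**
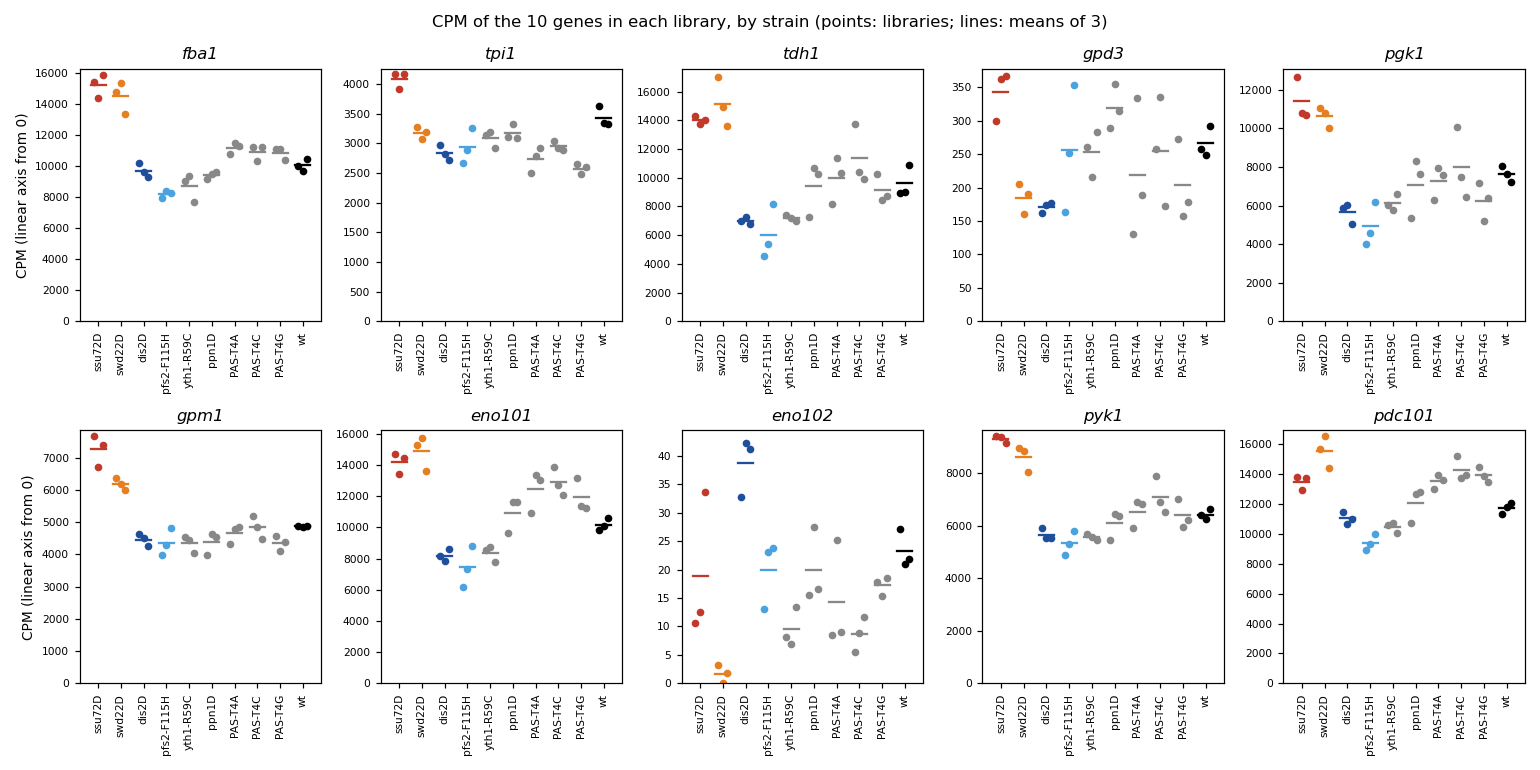
CPM (linear axes from 0) of each of the 10 genes in all 30 libraries, one panel per gene; points are libraries and lines the means of 3, with mutants left of wt. In 7 panels all ssu72D and swd22D points lie above all dis2D and pfs2-F115H points; *tpi1*, *gpd3* and *eno102* overlap.

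Aldolase, the product of *fba1*, makes the triose phosphates. *fba1* had 15426, 14348 and 15865 CPM in ssu72D and 14754, 15353 and 13321 CPM in swd22D, against 9984, 9681 and 10481 CPM in wt. It had 10166, 9610 and 9304 CPM in dis2D and 7953, 8413 and 8256 CPM in pfs2-F115H. Both deletions of the first pair were thus clear of wt on the high side, pfs2-F115H was clear on the low side and dis2D overlapped wt. The log2 fold changes over wt were 0.60, 0.52, -0.05 and -0.29 in that order of strains, each with an SE of 0.08.

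Triose phosphate isomerase, encoded by *tpi1*, interconverts the triose phosphates, and its mRNA behaved differently from the rest of the abundant genes. It had 4170.1, 3923 and 4176 CPM in ssu72D, above the 3635, 3339 and 3329 CPM of wt. In swd22D it had 3282, 3071 and 3194 CPM, below every wt library, where the other 7 abundant genes were above every one (16.1% of all genes were). In dis2D (2718 to 2975 CPM) and pfs2-F115H (2663 to 3264 CPM) it was also below wt.

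Glyceraldehyde-3-phosphate dehydrogenase takes the oxidative step of the pathway and is encoded by *tdh1* and *gpd3*. *tdh1* showed the widest range of the abundant genes. It had 14319, 13751 and 13991 CPM in ssu72D and 16975, 14889 and 13626 CPM in swd22D, against 8968, 8987 and 10902 CPM in wt. The values were 6960.3, 7286 and 6804 CPM in dis2D and 4545, 5416 and 8157 CPM in pfs2-F115H. No library of these 4 strains overlapped wt. The pfs2-F115H libraries differed widely among themselves, which held for *pgk1* and *eno101* as well.

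Phosphoglycerate kinase, the product of *pgk1*, makes the first ATP of the pathway. *pgk1* had 12671, 10824 and 10716 CPM in ssu72D and 11064, 10811 and 10001 CPM in swd22D, against 8049, 7619 and 7223 CPM in wt. It had 5880, 6027 and 5047 CPM in dis2D and 4017, 4570.4 and 6198 CPM in pfs2-F115H. The 4 strains were again clear of wt, on opposite sides. *gpm1*, for phosphoglycerate mutase, was more even: 6708 to 7657 CPM in ssu72D, 5983 to 6379 CPM in swd22D, 4255 to 4616 CPM in dis2D and 3992 to 4805 CPM in pfs2-F115H, against 4844 to 4887 CPM in wt.

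Enolase forms phosphoenolpyruvate and is encoded by *eno101* and *eno102*. The abundant gene, *eno101*, had 14689, 13458 and 14464 CPM in ssu72D and 15276, 15742 and 13646 CPM in swd22D, against 9822, 10112 and 10604 CPM in wt. It had 8151, 7829 and 8601 CPM in dis2D and 6167, 7323 and 8800 CPM in pfs2-F115H. It followed *tdh1* in being clear of wt in all 4 strains.

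Pyruvate kinase, from *pyk1*, makes pyruvate with the second ATP. *pyk1* had 9121 to 9388 CPM in ssu72D and 8031 to 8930 CPM in swd22D, against 6237 to 6613 CPM in wt, and 5514 to 5895 CPM in dis2D and 4861 to 5794 CPM in pfs2-F115H. Pyruvate decarboxylase, from *pdc101*, opens the route to ethanol and, after *tpi1*, differed least of the abundant genes between the pairs of strains (0.51 on the log2 scale, against 0.32 for *tpi1*). *pdc101* had 12979 to 13831 CPM in ssu72D and 14438 to 16553 CPM in swd22D, against 11353 to 12065 CPM in wt. Its dis2D libraries (10642 to 11485 CPM) overlapped wt, and those of pfs2-F115H (8905 to 9978 CPM) were below it.

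Relative to wt, the median over the 10 genes was 0.51 in ssu72D, 0.41 in swd22D, -0.23 in dis2D and -0.28 in pfs2-F115H, beside 0.02, -0.04, 0.09 and 0.12 over all genes tested. At an adjusted p under 0.05, 7 were higher in ssu72D (8.27% of all genes were), 7 were higher and 1 lower in swd22D (7.17% and 12.9%), 4 lower in dis2D (4.80%) and 7 lower in pfs2-F115H (4.86%). All these comparisons used the same 3 wt libraries, and the counts rest on the contrasts by which the genes were picked. The 4 calls in dis2D were the least stable: 0 or 1 member passed whenever a dis2D or wt library was left out, and where 1 did it was *tpi1*. In ssu72D 5 to 7, in swd22D 7 or 8 and in pfs2-F115H 5 to 8 members passed when a library was left out. With only pfs2-F115H and wt in the fit, 3 members passed in pfs2-F115H. Because the median of all genes lay 0.09 above 0 in dis2D and 0.12 above 0 in pfs2-F115H, scaling by median ratios took the members' median to -0.32 in dis2D and -0.41 in pfs2-F115H. The same scaling split the calls over all genes into 4.26% higher and 7.55% lower in dis2D and 7.09% higher and 9.42% lower in pfs2-F115H, where the unscaled values gave 7.24% and 4.80%, and 14.1% and 4.86%.

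**Figure D4:**
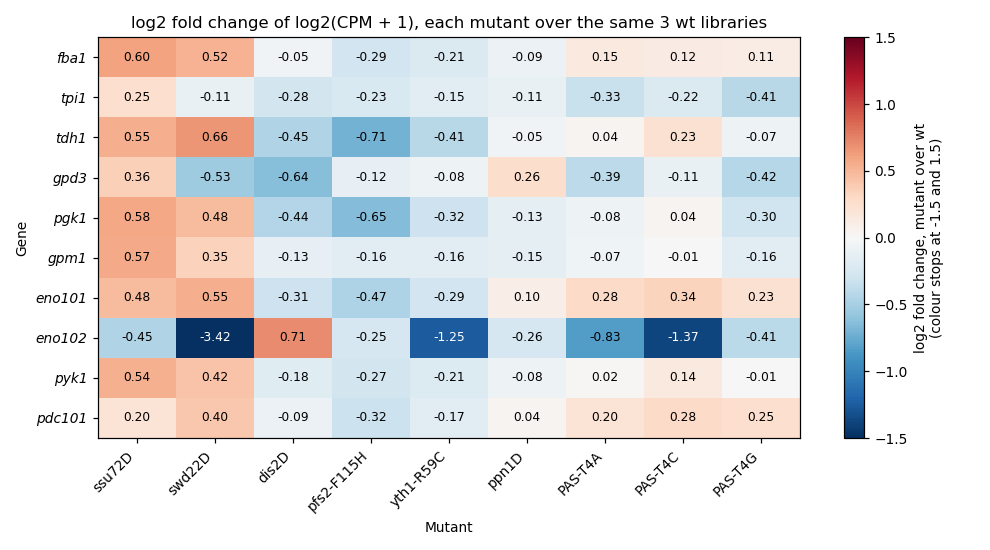
log2 fold change of log2(CPM + 1) for each of the 10 genes (rows) in each mutant over wt (columns); red is higher and blue lower in the mutant, and all columns share the 3 wt libraries. The columns of ssu72D and swd22D are mostly red (up to 0.66), those of dis2D, pfs2-F115H and yth1-R59C mostly blue, and *eno102* in swd22D is at -3.42.

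The minor copies followed their abundant partners in some strains and not in others. *gpd3* had 300.3, 363 and 366 CPM in ssu72D, above the 258, 249 and 293 CPM of wt, but 205, 160 and 190.4 CPM in swd22D and 162, 173 and 177 CPM in dis2D, both below wt. It was thus on the same side of wt as *tdh1* in ssu72D and dis2D and on the other side in swd22D. In pfs2-F115H it spread over 163 to 353 CPM, across wt. The ratio of *tdh1* to *gpd3* per kilobase was 78.6 in swd22D, 39.2 in ssu72D, 39.4 in dis2D and 22.6 in pfs2-F115H, against 34.6 in wt, with single libraries at 68.6 to 89.3 in swd22D and 33.3 to 35.7 in wt. The coding sequences of *tdh1* and *gpd3* are 93.0% identical. Of the 50-base windows, the length of a read, 16.6% in *tdh1* and 18.0% in *gpd3* occur elsewhere in the genome, and such reads were left out by the counting. Counting those identical windows, 38.3% of *gpd3* windows matched *tdh1* with at most 2 mismatches, so a small part of the *gpd3* level may be *tdh1* reads with errors, which was not tested.

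*eno102* lies 58.1 kb from the end of chromosome II, at chr2:58136-59690 on the minus strand, and was the member with the largest fold change. It had 5, 0 and 3 reads (3.18, 0 and 1.74 CPM) in swd22D, against 108, 133 and 81 reads (27.1, 21.0 and 21.8 CPM) in wt. In dis2D it had 32.8, 42.4 and 41.2 CPM, above wt, the opposite direction to the other members. In ssu72D (10.7, 12.5 and 33.6 CPM) and pfs2-F115H (13.0, 23.1 and 23.8 CPM) it overlapped wt. No 50-base window of *eno101* or *eno102* occurs in the other, whose coding sequences are 63.7% identical. The antisense RNA listed as eno102-antisense-1 also was higher in dis2D, at 37.3, 29.7 and 27.7 CPM against 5.77, 8.04 and 7.27 CPM in wt (log2 fold change 2.02 ± 0.27 SE, adjusted p = 1.2e-06, limma). That antisense gene was looked up after the *eno102* values were seen, and counting was by strand.

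The genes were not chosen by their direction in the 5 remaining mutants, but earlier results of these data were known at the choice. These mutants were tested against the same wt libraries that entered the choice, so the tests are not independent of it. In yth1-R59C all 10 genes were on the low side of wt, at a median of -0.21 beside 0.09 over all genes. None passed at an adjusted p under 0.05 (limma), where 3.86% of all genes did, with a lowest adjusted p of 0.0781 for *eno102*. At an unadjusted p under 0.05, 9 of the 10 were lower, as were 3.87% of all genes. For 9 of the 10, all but *gpd3*, the 3 yth1-R59C libraries were below the 3 wt libraries, where 6.58% of all genes were. edgeR's quasi-likelihood test on recovered reads called 3 of them lower (*fba1*, *eno101* and *eno102*) and DESeq2 called 4 (*pdc101*, *fba1*, *eno101* and *tpi1*). *tdh1* had 7407, 7191 and 7016 CPM in yth1-R59C against 8968, 8987 and 10902 CPM in wt, a log2 fold change of -0.41 ± 0.15 (SE), and *fba1* had 9033, 9348 and 7709 CPM against 9984, 9681 and 10481 CPM.

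In the libraries labelled ppn1D no member passed by limma (2.44% of all genes did), by edgeR or by DESeq2, and 0 of the 10 reached an unadjusted p under 0.05 by limma (10.4% of all genes did). The median was -0.08 and the values ran between -0.26 for *eno102* and 0.26 for *gpd3*. *tdh1* had 7260.5, 10678 and 10249 CPM in these libraries, across the range of wt.

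In the strains that differ from wt only in the reporter's signal, the members called were *tpi1*, *pdc101* and *eno102*. *tpi1* fell to 2508, 2787 and 2915 CPM in PAS-T4A and to 2644, 2484 and 2597 CPM in PAS-T4G, against 3635, 3339 and 3329 CPM in wt. The log2 fold changes were -0.33 ± 0.07 and -0.41 ± 0.07 (SE), with adjusted p = 0.00264 and 0.000154 (limma). *tpi1* was the only member called in either strain, a count near the share of all genes called there, 7.34% and 8.88%. Both calls held under each alternative run, those that leave out a library included. Every run used the same wt strain, and *tpi1* was also below all wt libraries in swd22D, dis2D, pfs2-F115H and yth1-R59C. It overlapped wt in ppn1D and was above it in ssu72D. A low level in the PAS strains and a high level in the shared wt libraries cannot be told apart. In PAS-T4C *tpi1* had 3047, 2929 and 2885 CPM, below every wt library, at -0.22 ± 0.07 and an adjusted p of 0.0791. In that strain *pdc101* was called higher (15242, 13728 and 13924 CPM, log2 fold change 0.28 ± 0.08, adjusted p = 0.0435) and *eno102* lower (5.51, 8.87 and 11.6 CPM, -1.37 ± 0.40, adjusted p = 0.0444), where 3.77% of all genes were called. Neither of those 2 calls held when any of the 6 libraries was left out. *eno101* and *pdc101* were above every wt library in all of PAS-T4A, PAS-T4C and PAS-T4G, a position held by 13.8%, 10.5% and 17.1% of all genes, at log2 fold changes of 0.20 to 0.34, of which *pdc101* in PAS-T4C was the one that passed.

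The other genes of the pathway were taken as 5 lists, upper glycolysis, the ethanol branch, the glycerol branch, the pentose phosphate pathway, and pyruvate dehydrogenase with the citric acid cycle. They hold 45 genes, of which 44 were tested. The one left out, *pdc102*, another pyruvate decarboxylase gene, had 0 to 3 reads per library. Between the mean of ssu72D and swd22D and that of dis2D and pfs2-F115H, 12 of the 44 were higher and 8 lower, where 6.09% and 26.3% of all genes were, and their median was 0.01 beside 0.66 for the 10 genes. The pairs were formed from the direction of the 10 genes in these data. An adjusted p between the pairs for a gene that moves with them is therefore not an independent test.

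Of the 5 pathway lists, upper glycolysis was the most like the 10 genes in this comparison. In it 4 of 5 genes were higher and 0 lower, where 6.09% and 26.3% of all genes were, shares that also stand beside the counts of the other pathway lists below. They were *hxk1* (0.18) and *hxk2* (0.43), for hexokinase, *pgi1* (0.45), for phosphoglucose isomerase, and *pfk1*, for phosphofructokinase, which commits the sugar to glycolysis. *pfk1*, the most abundant of them, had 3090 to 3635 CPM in ssu72D and swd22D and 2248 to 2937 CPM in dis2D and pfs2-F115H, with no overlap (0.33 ± 0.05 SE, adjusted p = 1.44e-05). Against wt (3169 to 3414 CPM), *pfk1* was called only in pfs2-F115H (-0.35 ± 0.07, adjusted p = 0.0011). *fbp1* runs the reverse step, as fructose-1,6-bisphosphatase, and did not pass between the pairs of strains. It was low in swd22D (12.1, 16.5 and 14.5 CPM against 41.1, 37.0 and 29.6 CPM in wt; -1.26 ± 0.35, adjusted p = 0.0098) and in dis2D (14.8, 18.8 and 14.2 CPM; -1.12 ± 0.35, adjusted p = 0.033), where the call was lost on leaving out any of 5 of the 6 libraries.

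**Figure D5:**
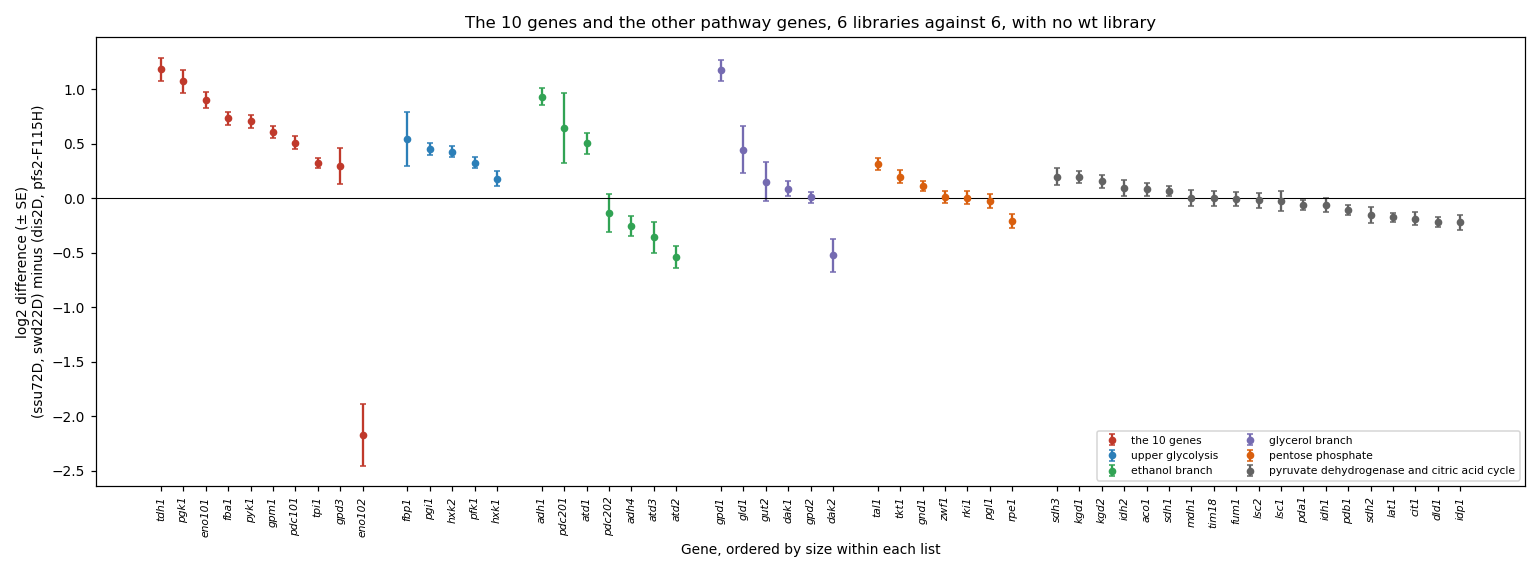
Difference on the log2 scale (± SE) between the mean of ssu72D and swd22D and the mean of dis2D and pfs2-F115H, for the 10 genes and the 44 other pathway genes tested, coloured by list and ordered by size within each. The 10 genes run between 1.18 (*tdh1*) and -2.17 (*eno102*), *adh1* is at 0.93, *gpd1* at 1.17, and the genes of the citric acid cycle list lie between -0.22 and 0.20.

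In the ethanol branch 2 of the 7 genes tested were higher and 2 lower. *adh1*, the alcohol dehydrogenase that acts after *pdc101*, had 10290, 9356 and 9363 CPM in ssu72D and 10232, 10246 and 9111 CPM in swd22D, against 6218, 6381 and 6352 CPM in wt. It had 6064, 6044 and 5235 CPM in dis2D and 3908, 4500 and 5255 CPM in pfs2-F115H. It rose in ssu72D (0.61 ± 0.10, adjusted p = 5.73e-05) and swd22D (0.64 ± 0.10, adjusted p = 3.1e-05) and fell in pfs2-F115H (-0.48 ± 0.10, adjusted p = 0.00125), while in dis2D it was at -0.13 ± 0.10, and the difference between the pairs was 0.93 ± 0.07 (adjusted p = 1e-11). *atd1*, an aldehyde dehydrogenase gene, instead rose in all 4 strains, with 2823 to 3013 CPM in ssu72D, 2708 to 3146 CPM in swd22D, 2061 to 2369 CPM in dis2D and 1869 to 2000.1 CPM in pfs2-F115H, against 1140 to 1602 CPM in wt. The call of *atd1* in pfs2-F115H (0.49 ± 0.13, adjusted p = 0.00927) was lost with scaling by median ratios, edgeR and DESeq2.

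The glycerol branch, which draws on the triose phosphates below aldolase, had 1 of 6 genes higher and 1 lower. *gpd1*, for glycerol-3-phosphate dehydrogenase, had 1109, 944 and 1218 CPM in ssu72D against 649.9, 444 and 508 CPM in wt, and 291, 363 and 371 CPM in dis2D. It rose in ssu72D (1.04 ± 0.14, adjusted p = 1.37e-06) and fell in dis2D (-0.63 ± 0.14, adjusted p = 0.00205), with 1.17 ± 0.10 between the pairs (adjusted p = 3.75e-11). *gpd2*, the second gene for that enzyme, was at 0.01 ± 0.05 between the pairs. It rose in swd22D (0.42 ± 0.08, adjusted p = 0.000111), dis2D (0.37 ± 0.08, adjusted p = 0.00104) and PAS-T4A (0.30 ± 0.08, adjusted p = 0.011), the last of these lost without replicate 3 of wt or replicate 1 of PAS-T4A. It was also called higher in PAS-T4G (0.26 ± 0.08, adjusted p = 0.0288), a call lost with scaling by median ratios, edgeR and DESeq2. *dak2*, for dihydroxyacetone kinase, which feeds glycerol carbon back into glycolysis, fell in ssu72D (30.5, 43.1 and 44.8 CPM), swd22D (33.1, 27.1 and 31.8 CPM), dis2D (56.5, 31.1 and 47.2 CPM) and pfs2-F115H (54.4, 59.2 and 58.8 CPM), against 104, 126 and 95.6 CPM in wt. Its log2 fold change was between -1.78 in swd22D and -0.90 in pfs2-F115H (SE 0.21) among these. *dak2* was also called lower in yth1-R59C (-0.78 ± 0.21, adjusted p = 0.0292) and PAS-T4C (-0.74 ± 0.21, adjusted p = 0.0393), calls that were lost without the filter on low values and on leaving out several single libraries.

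The routes on either side of glycolysis moved less. Of the 7 pentose phosphate genes, 2 were higher and 1 lower between the pairs, and *tkt1*, for transketolase, the most abundant, was at 0.20 ± 0.06 (adjusted p = 0.0105), a call lost without replicate 1 of pfs2-F115H, where the difference was 0.15. Of the 19 genes of pyruvate dehydrogenase and the citric acid cycle, 3 were higher and 4 lower, with a median of -0.02, and *aco1*, for aconitase, was at 0.08 ± 0.06. *fum1*, for fumarase, was the exception of size in this list: it had 407, 465 and 479 CPM in the libraries labelled ppn1D, against 200.2, 209.6 and 197 CPM in wt (1.15 ± 0.09, adjusted p = 8.19e-12), where no member was called.

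The 4768 genes that averaged 10 CPM or more were ranked by how closely their log2(CPM + 1) followed the mean of the 8 abundant members across the 30 libraries. The 5 nearest were *adh1* (Pearson r = 0.968), *pgi1* (0.939), *aru1*, for arginase (0.899), *hxk2* (0.889) and *obr1* (0.874). Of these, *adh1*, *pgi1* and *hxk2* encode enzymes of the same route from glucose to ethanol. The libraries share strains, depth and total, and include those of ssu72D, swd22D, dis2D and pfs2-F115H, whose directions chose the members. The ranking thus partly follows that choice, and these values are a description. By the same measure each member was set against the mean of the other abundant members, a likeness that the choice of genes in part fixed. *pyk1* (0.982) and *tdh1* (0.965) followed it most closely, *tpi1* at 0.534 least of the 8, and *gpd3* (0.275) and *eno102* (-0.451) hardly or inversely.

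Markers of other culture states differed among the same strains. Of 12 genes raised under stress, 9 were higher in ssu72D, among them *hsp9* (153, 150 and 213 CPM, against 90.8, 49.3 and 64.6 CPM in wt) and *gst2* (447, 345 and 461 CPM, against 158, 123 and 133 CPM in wt). In swd22D 4 were higher and 1 lower, in dis2D 0 higher and 3 lower, and in pfs2-F115H 0 higher and 1 lower. Over all genes, 8.27% were higher in ssu72D, 7.17% higher and 12.9% lower in swd22D, 4.80% lower in dis2D and 4.86% lower in pfs2-F115H. Between the pairs 9 of the 12 were higher and 0 lower, where 6.09% and 26.3% of all genes were, and the median of the 12 was 0.48 beside 0.66 for the 10 genes and 0.43 for upper glycolysis. Their summed share of reads was 0.294% to 0.361% in ssu72D, 0.236% to 0.253% in swd22D, 0.171% to 0.181% in dis2D and 0.148% to 0.164% in pfs2-F115H, against 0.169% to 0.194% in wt. In the libraries labelled ppn1D the share was 0.273% to 0.281%, most of it in *tpx1*, a peroxiredoxin gene, and the 10 glycolytic genes overlapped wt in sum. Of the 12, 1 was called higher and 0 lower there, where 1.39% and 1.05% of all genes were. Their median in ppn1D was -0.02, so the list as a whole was not raised. None of the stress markers was at 0 in any strain, and their part in the levels of the glycolytic genes was not tested.

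A list of 7 genes was taken as low glucose markers, with *fbp1* among them, and whether each responds to glucose here was not tested. It held 0.154% to 0.176% of the reads in ssu72D, 0.142% to 0.172% in swd22D, 0.133% to 0.151% in dis2D and 0.194% to 0.209% in pfs2-F115H, against 0.324% to 0.373% in wt. The list was thus lower than wt in sum on both sides of the comparison. Most of that sum was *mae2*, a malic enzyme gene, so it is not a measure of the whole list. Of the 7 genes, 0 were called higher and 2 lower in ssu72D, where 5 had a fold change above 0 and the median was 0.18, and 3 were lower in swd22D, 2 in dis2D and 2 in pfs2-F115H. None of the 7 passed between the pairs of strains. The ribosomal protein list, the other large group of abundant mRNAs, was also low on both sides. Its 141 genes were taken by names beginning rpl, rps or rpp, with no check of what each encodes. Of these, 58 were lower in ssu72D, where 8.49% of all genes were, 97 in swd22D (12.9%), 84 in dis2D (4.80%) and 76 in pfs2-F115H (4.86%), and 0 were higher in any of the 4, with medians of -0.21, -0.33, -0.27 and -0.24. They were low in the strains with wild-type CPF too, with 74 lower in PAS-T4A (4.06%), 43 in PAS-T4C (2.59%) and 84 in PAS-T4G (4.53%). Between the pairs 16 were higher and 32 lower with a median of -0.02, beside -0.11 over all genes, and the part of these genes in the shares of the glycolytic genes was not tested.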

How the data were processed

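Total RNA was prepared with a stranded kit and sequenced as single-end reads of 50 bases. The authors aligned them to *S. pombe* ASM294v2 with STAR (version 2.7.3a), counted uniquely mapping reads by strand with featureCounts, and deposited CPM per feature. Whole reads were recovered from the CPM values in all 30 libraries (100% of values within 0.05 reads). The 7 small RNA samples were not used here.

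In R (4.3.3), limma (3.58.1) was fitted to log2(CPM + 1) in 1 model over 10 strains with 20 residual degrees of freedom and a mean-variance trend. Benjamini-Hochberg adjustment ran within each comparison over 5911 genes, those that averaged 1 CPM or more. Fold changes on this scale understate those of low genes. A gene was called at an adjusted p under 0.05, with no minimum fold unless given. edgeR (4.0.16) and DESeq2 (1.42.0) on the recovered reads were alternatives. Scripts were tested on simulated data.

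Named were all 10 members, other pathway genes called at 2-fold or more in any mutant (at most 12), the most abundant gene of each list, and the 5 genes nearest to the abundant members by correlation; other genes were named after their values were seen. The members and lists were chosen with earlier results of these data known. Of the 6996 features, 6850 matched RefSeq (ASM294v3) by identifier, which supplied lengths and sequences.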

Additional observations from a re-analysis of the deposited data

How the results depend on the processing

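Of the counts and medians recomputed with another setting, libraries left out apart, 308 stayed within 1.5 times (counts) or 1 SD (medians) of the value given, and 42 did not. The counts pooled both directions, and the sign of a median had no part in this. The direction of the median over the 10 genes in ssu72D, swd22D, dis2D, pfs2-F115H and between the pairs was the same in every setting run. Scaling by median ratios took the median of all genes in pfs2-F115H to 0.0021 in place of 0.12, and the median of the 10 genes became -0.3212 in dis2D, -0.3021 in yth1-R59C and 0.7711 between the pairs. In dis2D and yth1-R59C that median was -0.3229 and -0.3047 with edgeR, -0.3206 and -0.3012 with DESeq2, and -0.182 in dis2D without mitochondrial genes.

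The members called in dis2D numbered 1 at an adjusted p under 0.01, without the filter, without the trend or with a replicate block, and 2 with DESeq2, in place of 4. In pfs2-F115H 3 were called with only the 2 strains compared in the fit, in place of 7. In yth1-R59C 1 was called with a pseudocount of 4, 4 with only those strains in the fit, 3 with edgeR and 4 with DESeq2, in place of 0. In PAS-T4A 2 were called without mitochondrial genes, in place of 1. In PAS-T4C 0 were called at an adjusted p under 0.01 or with median ratios, 4 without mitochondrial genes and 1 with a pseudocount of 0.1 or 4, no filter, no trend, a replicate block or only those strains, in place of 2. In PAS-T4G 2 were called with a pseudocount of 0.1, a filter at 10 CPM, no mitochondrial genes or no trend, in place of 1. At an adjusted p under 0.01 the other pathway genes called numbered 3 in yth1-R59C, 1 in ppn1D, 1 in PAS-T4A, 1 in PAS-T4C, 2 in PAS-T4G and 13 between the pairs. They numbered 10 in yth1-R59C with only those strains in the fit, 1 in PAS-T4A with edgeR, and 1 in ppn1D and in PAS-T4C without the trend. The cause of these differences was not tested.

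Over all genes edgeR called 1537 in ssu72D, 388 in yth1-R59C and 419 in PAS-T4C, against 991, 228 and 223 with limma, and DESeq2 1107 between the pairs, against 1917. Scaling by median ratios moved the share of calls that were higher to 42.9% from 74.4% in pfs2-F115H, 36.1% from 60.1% in dis2D, 47.7% from 73.7% in yth1-R59C, 43.3% from 31.4% in PAS-T4C, 32.0% from 49.0% in PAS-T4G and 49.2% from 18.8% between the pairs.

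With libraries left out in turn, the members called numbered 0 to 1 in dis2D, 5 to 8 in pfs2-F115H, 5 to 7 in ssu72D, 7 to 8 in swd22D, 1 to 2 in PAS-T4A, 0 in PAS-T4C and 9 to 10 between the pairs. Other pathway genes numbered 6 (without replicate 3 of wt) to 9 in dis2D, 9 (without replicate 1 of pfs2-F115H) to 17 in pfs2-F115H, 2 to 4 in yth1-R59C, 1 to 3 in ppn1D, 1 to 3 in PAS-T4A, 1 to 2 in PAS-T4C and 2 to 5 in PAS-T4G.

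Log2 fold changes that took the other sign were called in no setting. With edgeR *pyk1* was at -0.0006355 in PAS-T4A, and *gpm1* in PAS-T4C was at 0.01439 with median ratios, 0.01079 with edgeR and 0.02116 with DESeq2. The remaining ranges are over libraries left out. In pfs2-F115H *gpd3* ran between -0.3897 and 0.1642 and *eno102* between -0.3926 and 0.01971, and in yth1-R59C *gpd3* ran between -0.1612 and 0.0315. In ppn1D *tdh1* ran between -0.151 and 0.1272, *pgk1* between -0.2568 and 0.06086, *pyk1* between -0.1223 and 0.0005227 and *pdc101* between -0.008319 and 0.1187. In PAS-T4A *tdh1* ran between -0.0594 and 0.1792, *pgk1* between -0.1451 and 0.02432 and *pyk1* between -0.01646 and 0.09381. In PAS-T4C *pgk1* ran between -0.1346 and 0.1882, *gpd3* between -0.3353 and 0.1457 and *gpm1* between -0.06433 and 0.04485. In PAS-T4G *tdh1* ran between -0.1547 and 0.02249 and *pyk1* between -0.08022 and 0.04249.

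Replicate numbers did not pair the samples: deviations of same-numbered mutant and wt libraries correlated at -0.17 to 0.199, and a replicate block moved no count of members or pathway genes called by over 1.5 times beyond those given for dis2D and PAS-T4C.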
